A study of Arabidopsis thaliana with 12 samples.

Results

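Binding of a tagged DELLA protein was examined at 7 genes that encode helix-loop-helix regulators of organ growth in Arabidopsis, namely BEE1, BEE2, BEE3, PRE1, PRE5, PRE6 and IBH1. The genes were chosen by name, with earlier results of these data known, out of 27444 nuclear protein-coding genes. Every peak with its summit inside one of them or within 1000 bp of it was taken. This gave 34 peaks of the 30830 in 6 peak lists. Chromatin immunoprecipitation followed by sequencing was done with an anti-GFP antibody on inflorescences of main stems bearing 5 to 10 flowers, grown at 22 °C in long days, after open flowers and the oldest buds had been taken off. All plants were of the Landsberg erecta (Ler) ecotype, and each of 3 genotypes had 2 independent biological replicates and an input library beside each ChIP library. The genotypes were untagged Ler, pGAI:gai∆17-3xYPet (gai-YPet), and pGAI:gai∆17-3xYPet in the cuc2-1 mutant (gai-YPet cuc2-1). In the tagged plants the GAI promoter drives gai with a deletion of 17 residues, fused to the yellow fluorescent protein YPet, and the labels of all tagged libraries carry one name, L306, so the tag was examined in what appears as a single line. Each ChIP library has its own peak list, with 234 and 406 peaks for the untagged plants, 7042 and 11289 for gai-YPet, and 8193 and 3666 for gai-YPet cuc2-1. The lists carry no read totals, so sequencing depth is unknown, and a missing peak says only that none passed the authors' threshold.

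DELLA proteins such as GAI repress gibberellin responses and have no DNA-binding domain of their own: they reach chromatin through transcription factors. The genes described here belong to a layered switch for cell elongation. BEE proteins are DNA-binding basic helix-loop-helix (bHLH) factors whose genes were found through their induction by brassinosteroid. IBH1 is a helix-loop-helix inhibitor that pairs with such DNA-binding factors and blocks them, and PRE proteins, which lack a basic region and do not bind DNA, pair with IBH1 and relieve the block. PRE genes are induced by gibberellin, brassinosteroid and auxin. In flowers, BEE1 and BEE3 act with the related factor CES in development of the reproductive tract.

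All 7 genes had a summit in at least 1 tagged list, against 33.3% of all nuclear protein-coding genes, and 4 of the 7 had one in all 4 tagged lists, against 9.75%. These 4 were BEE1, BEE2, BEE3 and PRE6. Because the 7 genes were chosen with earlier results of these data known, their counts are a description only. PRE1 had summits in 2 lists, gai-YPet replicate 2 and the first mutant replicate, and PRE5 and IBH1 in gai-YPet replicate 2 alone, which is the longest list. List by list, 4 of 7 genes had a summit in gai-YPet replicate 1 (18.8% of all genes), 7 in gai-YPet replicate 2 (31.9%), 5 in gai-YPet cuc2-1 replicate 1 (20.8%) and 4 in gai-YPet cuc2-1 replicate 2 (10.5%). The same 4 genes therefore made up the count for both gai-YPet lists, where the background was 18.1%, and for both gai-YPet cuc2-1 lists, where it was 10.2%. No gene had a summit in a Ler list, but a Ler summit was rare at any gene (0.244%), so that 0 of 7 is near the background and no result about these genes.

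**Figure D1:**
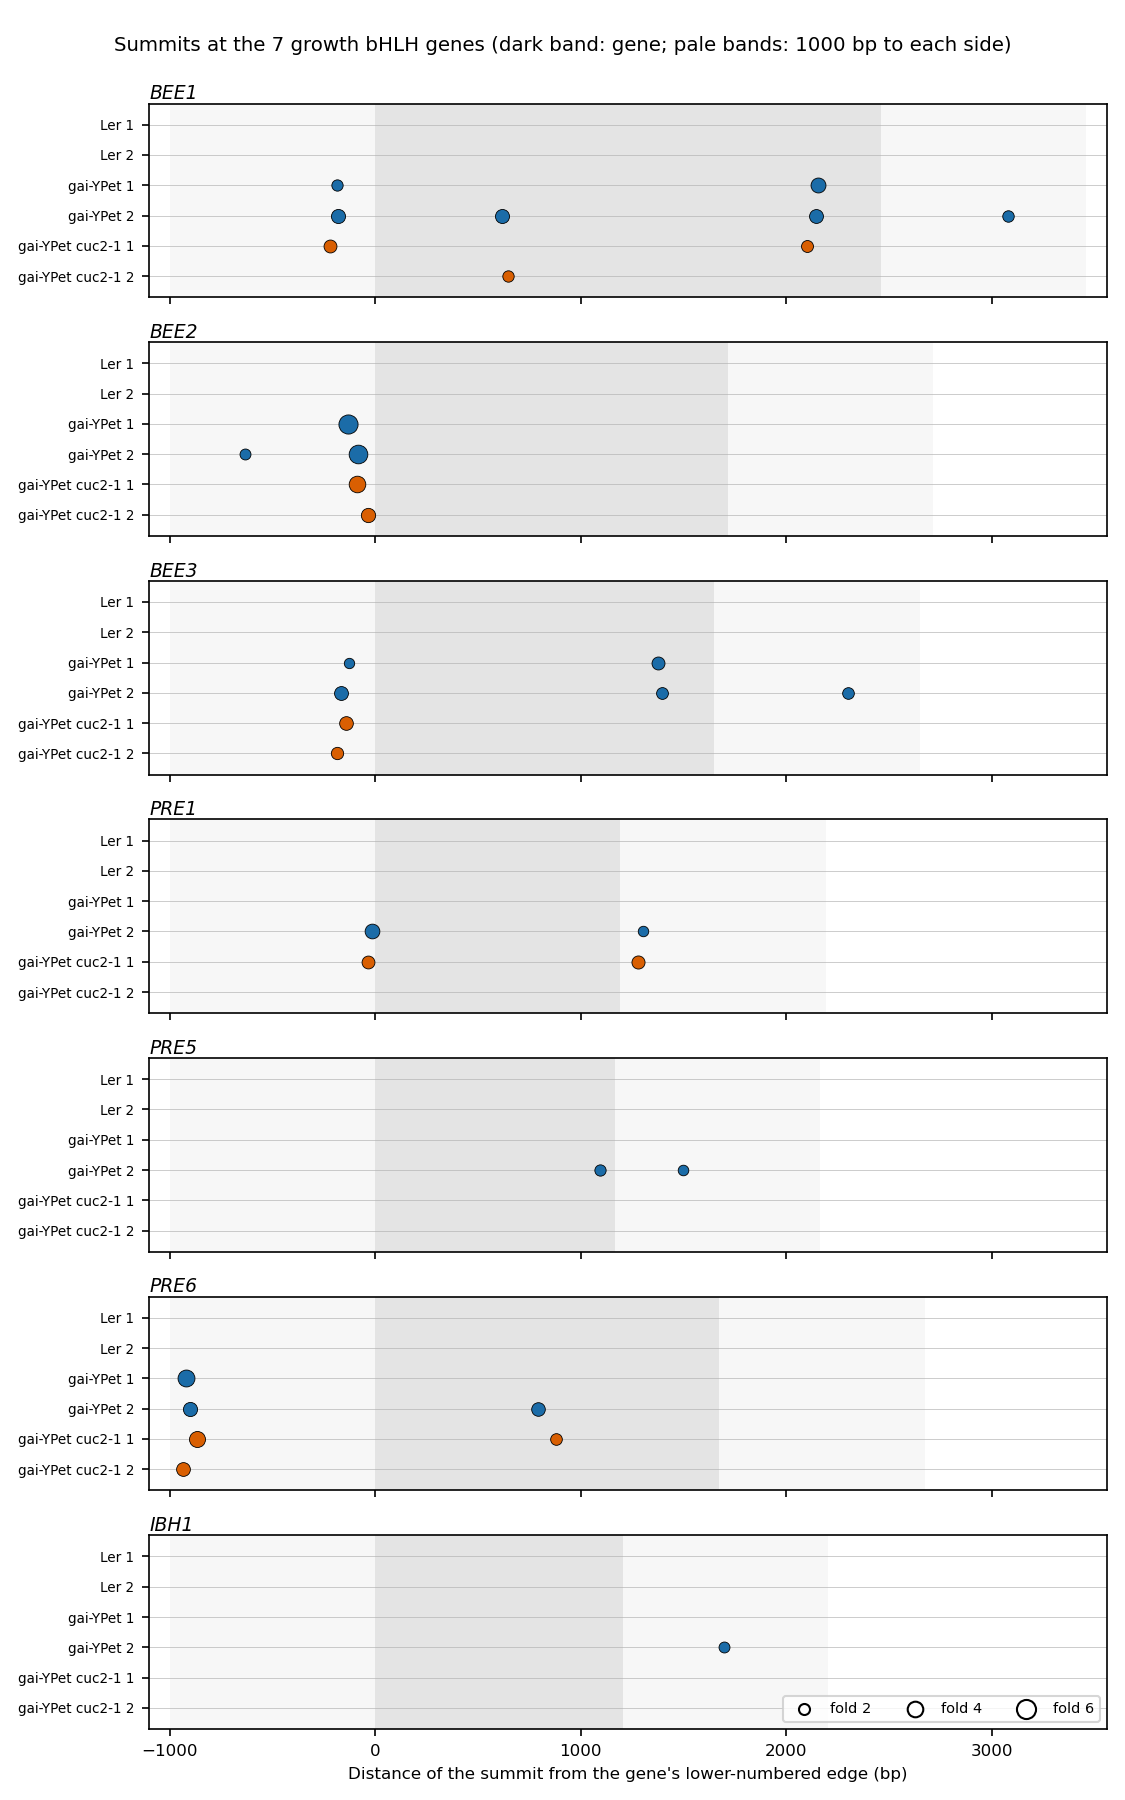
Position of every summit at the 7 genes. The horizontal axis is the distance in bp from the gene's lower-numbered edge, the rows are the 6 peak lists, and the area of a point is proportional to the authors' fold enrichment. The gene is the dark band and the pale bands are the 1000 bp to each side; BEE2, BEE3 and PRE6 each have 1 place with a summit in all 4 tagged lists, and the Ler rows are empty.

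Among the genes for DNA-binding activators, BEE2 carried the strongest peak of the 7. The fold enrichment that the authors' list gives for it was 6.03 and 5.73 in gai-YPet replicates 1 and 2, against 4.54 and 3.36 in replicates 1 and 2 of the cuc2-1 mutant. The median fold over all peaks was 3.25 and 2.57 in the gai-YPet lists and 2.70 and 2.62 in the mutant lists, so BEE2 lay above the median of each list. The −log10 q of its strongest peak was 59.2, 99.7, 54.3 and 22.1 in the same order. Ranked by −log10 q within each list, with 100 as the strongest, the BEE2 peak lay at percentiles 89.2, 94.6, 88.4 and 78.0. Of the 2676 genes with a summit in all 4 tagged lists, 24.5% had a higher mean percentile than BEE2. The peak lay on chromosome 4 (build TAIR10) from 17243282 to 17243776 in gai-YPet replicate 1 and from 17243171 to 17243957 in replicate 2, and it spread across the gene's lower-numbered edge. The 4 summits fell within 97 bp of each other, 35 to 132 bp outside that edge. The gene table gives no strand, so whether an edge is the start or the end of a gene is not stated for any gene here. No other protein-coding gene lay within 1000 bp of these 4 summits. A weaker second peak, with a fold of 1.97, lay 632 bp outside the same edge in gai-YPet replicate 2 only, where AT4G36530 is also within 1000 bp.

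BEE1 differed from BEE2 in having several weaker summits spread over the gene. Its strongest peak had folds of 3.67 and 3.28 in gai-YPet replicates 1 and 2, against 2.74 and 2.13 in the mutant replicates 1 and 2. These peaks lay at percentiles 60.2, 67.0, 50.7 and 10.9 of their lists, lowest in gai-YPet cuc2-1 replicate 2. With summits no more than 200 bp apart counted as 1 site, BEE1 had 4 sites. A site 183 to 221 bp outside the lower-numbered edge was present in both gai-YPet lists (folds of 2.10 and 3.28) and in gai-YPet cuc2-1 replicate 1 (2.74), whose summit was also within 1000 bp of AT1G18390. A site inside the gene, 303 to 355 bp from the higher-numbered edge, was present in the same 3 lists (3.67, 3.17 and 2.35). The only BEE1 summit of gai-YPet cuc2-1 replicate 2 lay elsewhere, 647 bp inside the lower-numbered edge (chromosome 1, 6331921 to 6332133), at a site it shared with gai-YPet replicate 2 (3.24). A single weak summit lay 621 bp outside the other edge in gai-YPet replicate 2 (2.17). The mutant replicates therefore both had a BEE1 summit but at no common site, and with summits of both replicates required to lie within 200 bp of each other BEE1 leaves the gai-YPet cuc2-1 count, which becomes 3 of 7 genes, against 9.92% of all genes by that rule. The gai-YPet count by that rule is 4 of 7, against 17.6% of all genes.

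BEE3 had 1 site common to the 4 tagged lists, 129 to 186 bp outside the lower-numbered edge, whose summits spanned 57 bp. The folds at that site were 1.77 and 3.17 in gai-YPet replicates 1 and 2, against 3.08 and 2.50 in the mutant replicates 1 and 2. In gai-YPet replicate 1 this peak was among the weakest of its list, at percentile 0.781, whereas in the other 3 lists it lay at 64.0, 60.4 and 38.7. The gai-YPet replicates thus lay further apart at this site than the mutant replicates, and the ranges of the genotypes overlapped. A further site inside the gene, 252 to 273 bp from the higher-numbered edge (chromosome 1, 27761245 to 27761464 in gai-YPet replicate 1), had folds of 2.76 and 2.30 in the gai-YPet replicates and no peak in either mutant list. It stood at percentiles 27.9 and 33.9 of the gai-YPet lists, and the difference between genotypes at this site was not tested. In gai-YPet replicate 1 it was stronger than the common site. Another summit lay 652 bp outside the higher-numbered edge in gai-YPet replicate 2 only (2.25).

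Of the PRE genes, PRE6 (KIDARI, known for binding the light-signalling factor HFR1) was the one with peaks in every tagged list. Its strongest peak had folds of 4.70 and 3.30 in gai-YPet replicates 1 and 2, against 4.21 and 3.12 in the mutant replicates 1 and 2. The percentiles were 74.5, 76.1, 81.4 and 66.2, and the genotypes overlapped on this scale. The site lay 869 to 933 bp outside the lower-numbered edge, close to the 1000 bp limit (chromosome 1, 9350089 to 9350399 in gai-YPet replicate 1), and its 4 summits spanned 64 bp. No other protein-coding gene lay within 1000 bp of it. Inside the gene a second site had folds of 3.04 in gai-YPet replicate 2 and 2.24 in the first mutant replicate. With a window of 500 bp PRE6 leaves the counts of both genotypes, and BEE1, BEE2 and BEE3 are left (3 of 7, against 13.6% of all genes in gai-YPet and 7.53% in the mutant).

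PRE1 (BANQUO1), named for resistance to the gibberellin synthesis inhibitor paclobutrazol, had a summit at each edge of the gene. At the lower-numbered edge the summits lay 14 and 36 bp outside the gene, with folds of 3.57 in gai-YPet replicate 2 (chromosome 5, 15957146 to 15957915) and 2.72 in the first mutant replicate. At the other edge they lay 110 and 89 bp outside, with folds of 1.81 and 2.82 in the same lists. The first of these peaks stood at percentile 72.7 of gai-YPet replicate 2, yet gai-YPet replicate 1 had no peak there, and PRE1 was therefore not reproduced within either genotype.

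When each gene was taken by its highest fold in any list, PRE5 and IBH1 were the lowest of the 7. PRE5 had a summit 70 bp inside its higher-numbered edge, with a fold of 2.10 (percentile 22.8), and another 335 bp outside it, with a fold of 1.85 (percentile 7.48), both in gai-YPet replicate 2. IBH1 had 1 summit, in the same list, with a fold of 1.97 (percentile 14.8). It lay 492 bp outside IBH1 and inside the neighbouring gene SPPL3, so that it cannot be assigned to IBH1 alone.

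**Figure D2:**
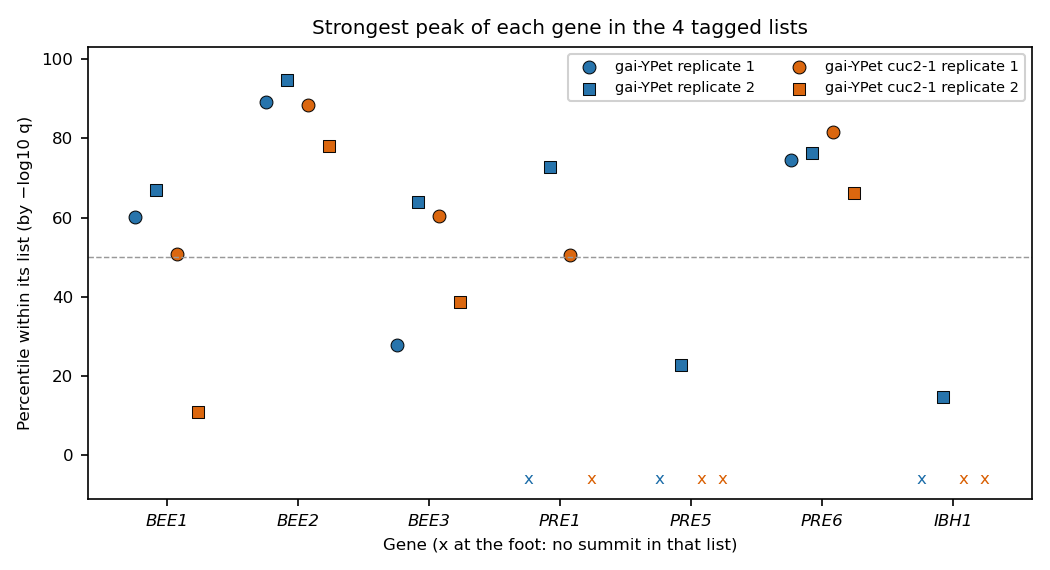
Strength of the strongest peak of each gene, as its percentile within its own list by −log10 q (vertical axis, 100 strongest). Circles are replicate 1 and squares replicate 2, and an x marks a list with no summit. BEE2 lies between 78.0 and 94.6 in the 4 lists, PRE6 between 66.2 and 81.4, and PRE5 and IBH1 have a point in 1 list each.

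Across the 7 genes the 34 summits fell into 16 sites by the 200 bp rule. There were 3 sites with a summit in all 4 tagged lists, 1 each at BEE2, BEE3 and PRE6, and 2 sites in 3 lists, both at BEE1. A further 5 sites were in 2 lists, and the remaining 6, in 1 list each, were all in gai-YPet replicate 2. Inside the genes lay 10 of the 34 summits, and outside them 24, of which 17 were within 500 bp of the gene. The 3 sites common to the tagged lists all lay outside their genes. The rule takes in 1000 bp to each side of genes that are themselves 1165 to 2459 bp long. Positions were not counted over all genes, so these counts describe the peaks and are no result about the 7 genes. By mean percentile over the 4 lists the order was BEE2 (87.6), PRE6 (74.6), BEE3 (47.8) and BEE1 (47.2). These means take the strongest peak of each list, which for BEE1 and BEE3 was not at the same site in every list. The range of BEE3 over the lists (27.9 to 64.0) lay inside that of BEE1 (10.9 to 67.0), while BEE2 and PRE6 overlapped from 78.0 to 81.4. The median of the mean percentile over all 2676 genes with a summit in the 4 lists was 73.8, so BEE2 stood above it, PRE6 near it, and BEE1 and BEE3 below it.

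The cuc2-1 mutant carries a defect in CUC2, a NAC transcription factor of organ boundaries that the study's title places in a complex with DELLA. Of the 7 genes, the 4 with summits in both gai-YPet lists had summits in both mutant lists as well. At BEE1, however, the summits of the mutant replicates shared no site. Over all genes, 2676 of the 4976 with summits in both gai-YPet lists had them in all 4 tagged lists. Strength was compared by rank after each tagged list was reduced to the 3666 peaks with the highest −log10 q, the length of the shortest list, and only BEE2 and PRE6 had a peak in all 4 reduced lists. BEE2 ranked 761 and 608 in gai-YPet and 953 and 807 in the mutant, so that its mean rank was 684.5 against 880, with rank 1 the strongest. PRE6 ranked 1786 and 2693 in gai-YPet and 1521 and 1236 in the mutant, with mean ranks of 2239.5 and 1378.5. In the reduced lists the ranks of the genotypes did not overlap at either gene. The directions were opposite, with BEE2 ranked higher in gai-YPet and PRE6 in the mutant. The share of all genes that separate in this way was not computed, so the separation is no result about these genes. Neither difference could pass a threshold: the exact permutation test, two-sided, gave p = 0.333 for each gene and 0.333 after Benjamini-Hochberg adjustment over the 2, which is the smallest value that 2 against 2 lists allow. For PRE6 the direction turns when percentiles of the full lists are used (a difference of -1.49 percentile points, negative when stronger in gai-YPet). BEE3 had peaks in both reduced mutant lists, at ranks 3245 and 2246, and in neither reduced gai-YPet list. In the full lists its strongest peak stood at percentiles 27.9 and 64.0 in gai-YPet, against 60.4 and 38.7 in the mutant. The value of 27.9 belongs to the site inside the gene, and the others to the common site outside it. At the common site gai-YPet replicate 1 stood at percentile 0.781. The genotypes thus overlapped for BEE3 on that scale. The lists were cut from 7042 and 11289 peaks in gai-YPet, and from 8193 in gai-YPet cuc2-1 replicate 1. Whether list length bears on the BEE3 ranks was not tested. BEE1 kept 1 peak in each genotype, PRE1 kept 1 in gai-YPet replicate 2 (rank 3081), and PRE5 and IBH1 kept none.

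Background by gene type was set beside the counts. In the members' range of gene length, 1165 to 2459 bp, 17.9% of 11263 genes had a summit in both gai-YPet lists and 9.98% in both gai-YPet cuc2-1 lists, close to the shares of all genes. Of 31 genes that the gene table names as bHLH, the shares were 32.3% and 22.6%. These 31 include 2 of the 7 genes and 6 of the 23 related genes followed below. The table names only part of this family in that way, so these shares describe those 31 genes.

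**Figure D3:**
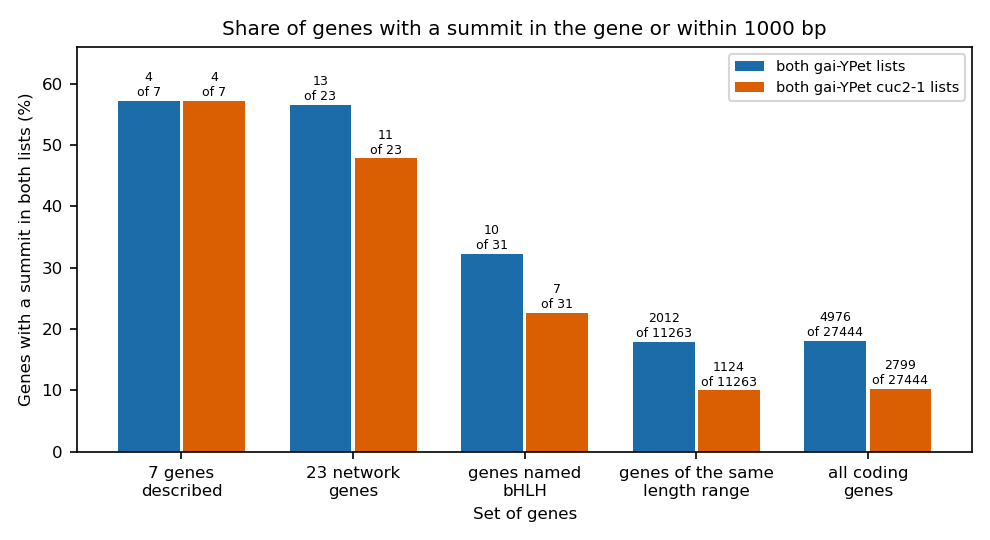
Percentage of genes with a summit inside the gene or within 1000 bp in both lists of a genotype, for 5 sets of genes. Bars start at 0 and carry the count over the size of the set; the 7 genes have 4 in each genotype and the 23 related genes 13 and 11, against 18.1% and 10.2% of all coding genes.

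The wider growth network was followed in a list of 23 related genes. That list was fixed with earlier results of these data known, so its counts are a description only. Of these, 13 had a summit in both gai-YPet lists and 11 in both gai-YPet cuc2-1 lists, beside the same 18.1% and 10.2% of all genes, and 0 had one in a Ler list. The 11 were all among the 13. Over all genes, 2676 of the 2799 with summits in both mutant lists also had them in both gai-YPet lists. The nesting is therefore near the background and no result about the related genes. By class, the HLH inhibitors related to IBH1 had summits in both gai-YPet lists at 6 of 7 genes and in both mutant lists at 5 of 7. The DNA-binding relatives of BEE had 4 of 9 and 3 of 9, the upstream regulators 2 of 4 in each genotype, and the other PRE genes 1 of 3 in each. Folds given below are those of a gene's strongest peak in each list by −log10 q, so they may come from different sites. Folds of separate lists are not on one scale: the list medians were 3.25 and 2.57 in gai-YPet and 2.70 and 2.62 in the mutant. Differences between genotypes at the related genes were not tested.

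Among the inhibitors, AIF2, which encodes a partner of the PRE protein ATBS1 (PRE3), had the highest fold of the list. Its folds were 9.30 and 5.49 in gai-YPet replicates 1 and 2 and 7.48 and 4.47 in the mutant replicates 1 and 2. AIF3, of the same family, had folds of 5.81 and 5.60 in gai-YPet, against 3.47 and 3.47 in the mutant. PAR1, an HLH protein of the shade response, had 5.57 and 5.03 in gai-YPet, against 5.41 and 2.94 in the mutant. These genes were named for their high mean percentiles, so that their folds exceed the IBH1 value is no result. The IBH1 value of 1.97 was seen in a single list, at a summit inside SPPL3.

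HBI1, a DNA-binding relative of BEE2 that is named for its interaction with IBH1, had folds of 4.02 and 4.60 in gai-YPet, against 3.91 and 2.47 in the mutant. Its relative CIL2 had 4.04 and 4.02 in gai-YPet, against 3.68 and 2.12 in the mutant. CES, singled out after its values were seen because it acts with BEE1 and BEE3, had folds of 2.91 and 3.87 in gai-YPet, against 2.48 in gai-YPet cuc2-1 replicate 1, with no peak in replicate 2. PRE2, the remaining PRE gene with peaks, had 3.73 and 3.82 in gai-YPet, against 3.91 and 2.79 in the mutant. PRE3 and PRE4 had no summit in any list, as did CIL1, CIB2 and CIB5. PRE2 and PRE6 were thus the 2 of 6 PRE genes with summits in all 4 tagged lists, against 9.75% of all genes.

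Of 4 regulators that act upstream of PRE genes, ARF6 and PIF4 had summits in all 4 tagged lists. ARF6, an auxin response factor, had folds of 4.13 and 6.14 in gai-YPet, against 6.22 and 4.33 in the mutant. It had 2 and 3 peaks in the gai-YPet lists and 3 and 1 in the mutant lists. Whether the strongest lay at one site in each list was not examined. PIF4, a phytochrome-interacting bHLH factor, had 4.90 and 4.65 in gai-YPet, against 5.19 and 2.49 in the mutant. BZR1, a brassinosteroid-responsive factor, had a peak in gai-YPet replicate 2 alone (2.09), and its relative BES1 in that list (2.42) and in gai-YPet cuc2-1 replicate 1 (2.45).

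**Figure D4:**
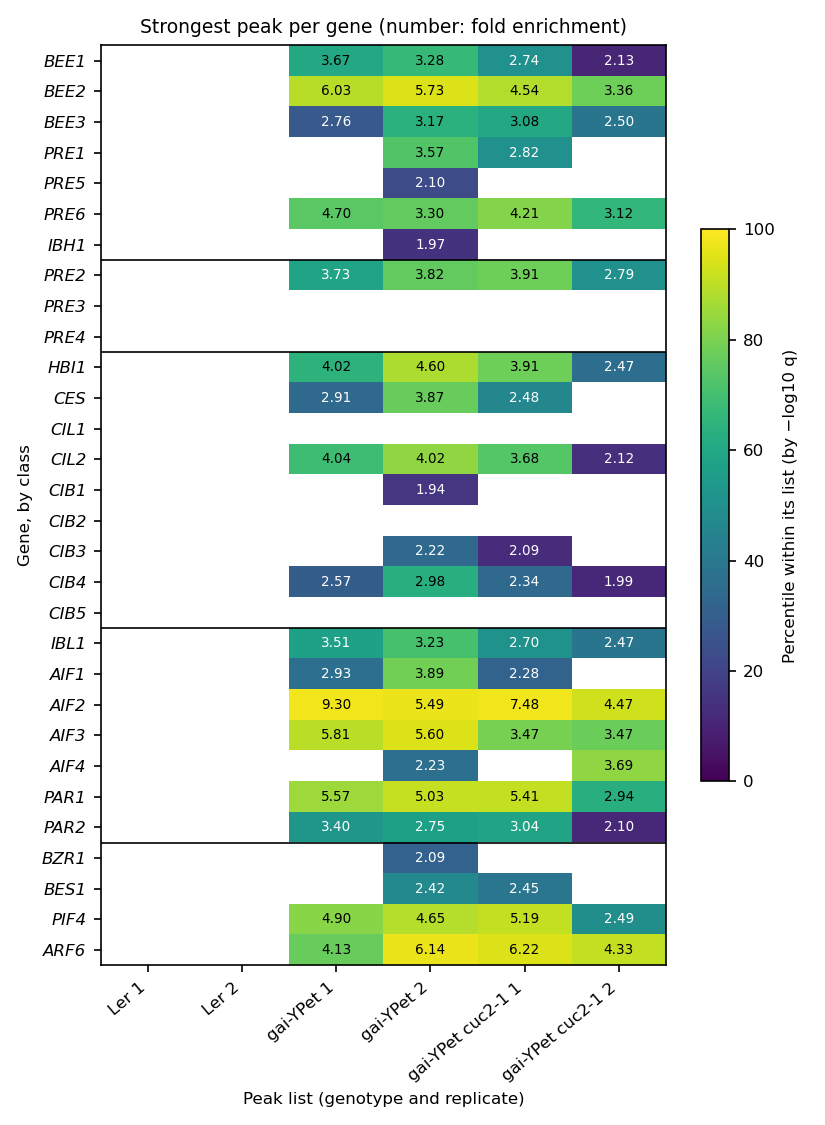
Strongest peak of the 7 genes (top block) and of the 23 related genes by class (other PRE genes, DNA-binding relatives of BEE, HLH inhibitors, upstream regulators) in the 6 peak lists. Colour is the percentile within the list by −log10 q, the number is the fold enrichment, and white means no summit; AIF2 reaches a fold of 9.30, and both Ler columns are white.

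The genes whose peak percentiles in the 4 tagged lists came closest to each of the 4 genes were found by the mean absolute difference over those 4 lists. For BEE2 they were RAD9 (0.570 percentile points), BLH7 and AT2G16405 (0.789 each), and for PRE6 SLO1 (2.01), AP3 and emb1967 (2.59 each). For BEE1 they were CLE17 (1.91), AT3G61920 (2.62) and TCP24 (3.40), and for BEE3 MAMI (2.41), ZAT7 and HRS1 (2.64 each). The genes given with one value between them have adjacent locus numbers, so they may be counted from the same peaks.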

How the data were processed

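Per the submitters' processing notes, the authors used cutadapt, Bowtie2, SAMtools, MACS2 and bedtools with the build TAIR10; no versions or settings are given in the sources used here. The deposited lists, 1 per ChIP library and none pooled, hold, for each peak, the authors' own fold enrichment (a ratio), their score, and p-values and q-values as −log10. Restoring 5 decimals to the replicate 2 lists, whose decimal marks were damaged in the deposit, makes the score equal 10 times the −log10 q, truncated, in every line. The restored folds have no such check of their own. Values describe and rank peaks within a list. The lowest −log10 q per list was 2.01 to 2.13.

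Genes, names and neighbours come from a RefSeq table of TAIR10.1 (Columbia), whereas the plants were Ler. Distances assume that nuclear positions equal those of TAIR10. All 23 related genes matched by locus tag, 21 also by the name used here (PRE2 and PRE4 are listed as BNQ2 and BNQ3). The members and lists were chosen with earlier results of these data known. Named genes were the 7 members and, of the 23, at most 8 by mean percentile among those with summits in both lists of a genotype; other genes of that list are named as noted or for having few or no peaks. The assignment of peaks to genes was tested on simulated data, and returned all 200 planted genes in each of 5 runs. Alternatives were other windows, peak overlap, stricter thresholds, lists of equal length, removal of peaks on Ler peaks, shared summits and each list left out. Sequences are not used here. The computing used pandas 2.3.3 and numpy 2.4.6 under Python 3.11.15, with matplotlib 3.10.9 for the plots.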

Additional observations from a re-analysis of the deposited data

How the results depend on the processing

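The count of 4 of the 7 genes in both gai-YPet lists ranged from 4 to 7 when either list was left out: without gai-YPet replicate 1 it was 7, with PRE1, PRE5 and IBH1 added from replicate 2, and the share of all genes was 31.9% in place of 18.1%. It was 2 with the summit inside the gene only (BEE1 and BEE3; 6.23% of all genes), a smaller span by construction, and 2 in lists of equal length (BEE2 and PRE6; 9.62%). The gai-YPet cuc2-1 count of 4 was 1 with the summit inside the gene (BEE1; 3.43% of all genes) and 2 in the stronger 50% of each list (BEE2 and PRE6; 5.58%). For the 23 related genes, the gai-YPet count of 13 was 7 and the gai-YPet cuc2-1 count of 11 was 6 with the summit inside the gene, and the latter was 5 in the stronger 50%, beside the same shares of all genes (6.23%, 3.43% and 5.58%). The other alternatives left these counts within 1.5 times, and the Ler count of the 7 genes stayed 0 in each alternative run. The labels do not say that a replicate number marks a shared day or batch, and whether it does was not tested. Over 2676 genes the same-numbered lists deviated together with a correlation of 0.081 in log2 fold. With a replicate block the difference in mean rank, gai-YPet minus gai-YPet cuc2-1, was -195.5 for BEE2 and 861 for PRE6, as without it (exact sign-flip test, p = 0.5, the smallest that 2 pairs allow). For PRE6 the percentiles of the full lists turned the direction to -1.49 (a negative value means stronger in gai-YPet; exact permutation test, p = 1); the cause was not tested, though these lists differ in length. A 500 bp window gives no PRE6 value, as its common site lies farther out.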

Other observations

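Peaks beyond the 1000 bp limit were also listed, up to 5000 bp from each of the 7 genes. The strongest near IBH1 lay 2716 to 2725 bp outside its lower-numbered edge, on chromosome 2 from 17905805 to 17906690 in gai-YPet replicate 2, with folds of 3.66 and 4.77 in gai-YPet replicates 1 and 2, against 3.11 in gai-YPet cuc2-1 replicate 1. No protein-coding gene lay within 1000 bp of that summit, and with a 3000 bp window IBH1 joins the gai-YPet count, which becomes 5 of 7 against 30.4% of all genes. Near PRE5, a peak 4571 to 4620 bp outside the higher-numbered edge had folds of 3.23 and 3.29 in gai-YPet, against 2.94 in the first mutant replicate, and also lay more than 1000 bp from any protein-coding gene. Near PRE6, a peak 4916 to 4962 bp outside the higher-numbered edge, within 1000 bp of AtHB23, was in all 4 tagged lists, with folds of 2.61 and 2.55 in gai-YPet, against 3.54 and 2.41 in the mutant. A nearer PRE6 peak, also within 1000 bp of AtHB23, lay 2214 to 2250 bp outside the same edge. Its folds were 4.65 and 3.39 in gai-YPet, against 2.72 in the first mutant replicate. Near BEE1, a peak within 1000 bp of AT1G18410 lay 2115 to 2168 bp outside the higher-numbered edge. Its folds were 3.68 and 3.49 in gai-YPet, against 2.30 in the first mutant replicate. Further peaks lay near several of the 7 genes and are not described here. To which gene such peaks belong was not tested.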
